A study of Drosophila melanogaster with 24 samples.

Results

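The Npc2 genes of *Drosophila melanogaster* encode a family of small sterol-binding proteins, and the members described here are Npc2a, Npc2b, Npc2c, Npc2d, Npc2e, Npc2f, Npc2g and Npc2h. They were taken as all probe sets whose only gene symbol in the array annotation is Npc2 followed by a letter from a to h. This gave 8 probe sets, 1 per gene, among the 18769 probe sets tested. The family was chosen by the values of Npc2e between mean temperatures, so those values are given as a description and without a test. The same arrays enter the ramping and fluctuation contrasts of Npc2e, so its P there are not independent of that choice. The other 7 members entered by their name.

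NPC2 proteins carry an ML (lipid recognition) domain, bind sterols inside the cell or after secretion, and hand them on to the membrane protein NPC1. Insects cannot make sterols and take them from food, and flies need them for membranes and as the precursor of ecdysteroid hormones. In *D. melanogaster*, Npc2a and Npc2b act in sterol homeostasis with overlapping roles, and Npc2a, Npc2e and Npc2h bind components of bacterial cell walls.

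Flies came from a laboratory stock founded from field-collected Danish flies, and all were adult males less than a week old. They were reared from the egg at constant 15 °C, at constant 25 °C, or under daily fluctuations around the same means, each regime in a single cabinet, and were moved to 20 °C before the assay. Within each regime males were frozen from 20 °C (assayed at 20 °C) or after ramping from 20 to 35 °C at 0.1 °C per min (assayed at 35 °C), which gave 8 groups of 3 arrays. An array measured whole flies kept 20 to a vial, so the spread between arrays is that between pools from 1 cabinet, and a cabinet cannot be told apart from its regime. Values are GC-RMA expression levels on the log2 scale, and a difference of 1 is a 2-fold difference in level. Fewer cells of a type and less RNA per cell cannot be told apart in whole flies.

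The array of replicate 3 of 15 °C fluctuating, 35 °C, correlated with the others at 0.208 to 0.216 over all probe sets, against 0.969 to 0.998 among the other 23, and it was left out. Its group then has 2 arrays. With that array, 4 of the 7 members tested in the mean temperature contrast of this group were called (7.77% of all probe sets in either direction), 1 of 8 in its ramping contrast (2.54%) and 0 of 8 in its fluctuation contrast (0%). Replicate 1 of 15 °C constant, 20 °C, had a summed level of egg shell and yolk genes of 15.4, against 8.74 to 9.68 on the other 22 arrays. Leaving it out as well changed no call of an Npc2 probe set that had passed. Markers of testis (summed level 14.7 to 15.3) and of the male accessory gland (15.6 to 16.4) were present on all 23 arrays, all labelled male.

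Npc2e, a secreted member that binds bacterial cell wall components, had the widest range in the family. Its group means ran from 4.88 to 8.97, which is 17.0-fold. Flies of constant 15 °C assayed at 20 °C had values of 5.55, 6.20 and 5.85, and those of constant 25 °C had 8.93, 8.78 and 9.19. After ramping the same regimes had 4.85, 5.10 and 4.88 at 15 °C and 7.13, 7.19 and 8.27 at 25 °C. Under fluctuation the values at 20 °C were 4.90, 5.60 and 5.46 around a mean of 15 °C and 8.33, 7.73 and 7.47 around 25 °C. After ramping these were 5.02 and 4.75 at 15 °C and 7.23, 7.30 and 8.58 at 25 °C. Every array of 25 °C lay above every array of 15 °C, with a gap of 1.66 between the highest group mean of 15 °C and the lowest of 25 °C. The difference between mean temperatures was 3.10 ± 0.32 (SE) in constant flies at 20 °C, 2.58 ± 0.32 in constant flies at 35 °C, 2.52 ± 0.32 in fluctuating flies at 20 °C and 2.82 ± 0.36 in fluctuating flies at 35 °C. As folds these are 8.57, 5.99, 5.75 and 7.08. The 15 °C values lay nearer the most frequent value over all probe sets (close to 3.35), and GC-RMA compresses dim values. Whether this limited the folds, or the differences with ramping and fluctuation at 15 °C, was not tested.

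The order of the 8 groups of Npc2e had a break at each of 2 places. From the lowest, the means were 4.88 (15 °C fluctuating, 35 °C), 4.95 (15 °C constant, 35 °C), 5.32 (15 °C fluctuating, 20 °C) and 5.87 (15 °C constant, 20 °C), and arrays of each pair of neighbours overlapped. Above the break came 7.53 (25 °C constant, 35 °C), 7.71 (25 °C fluctuating, 35 °C) and 7.84 (25 °C fluctuating, 20 °C), which also overlapped. The mean of 25 °C constant, 20 °C, was 8.97, and its arrays lay above all others.

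**Figure D1:**
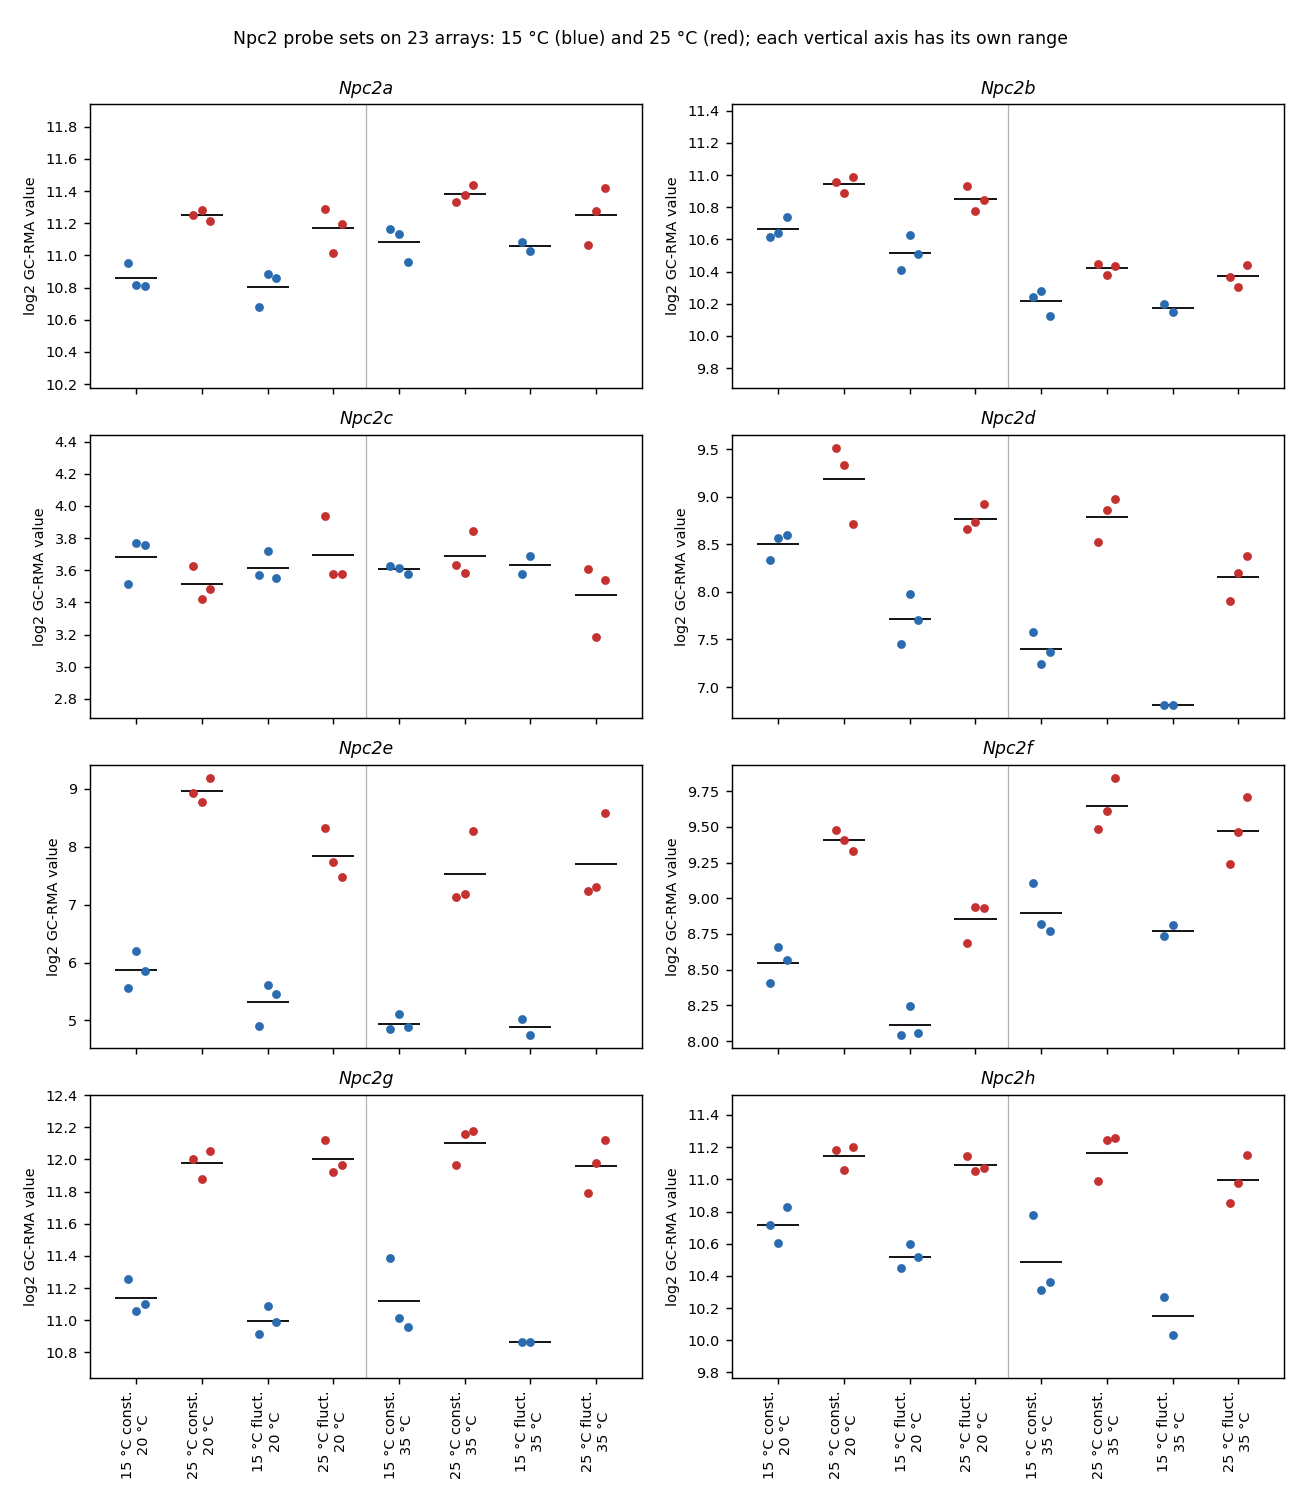
Log2 GC-RMA value of each Npc2 probe set (vertical axis, a range of its own per gene) in the 8 groups (horizontal axis); points are the 23 arrays, blue for a mean of 15 °C and red for 25 °C, and black lines are group means. For Npc2e all 25 °C arrays lie above 7 and all 15 °C arrays below 6.3, whereas Npc2c stays between 3.19 and 3.94 in every group.

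Of the 7 members other than Npc2e, 6 were higher at 25 than at 15 °C in at least 1 contrast, by limma with P adjusted over all probe sets of a contrast and 0.05 as the threshold. The number was 6 of 7 in constant flies at 20 °C, where 22% of all probe sets were called higher. It was 6 of 7 in constant flies at 35 °C (21.9% of all probe sets), 6 of 7 in fluctuating flies at 20 °C (17.6%) and 4 of 7 in fluctuating flies at 35 °C (13.7%). None was called lower, against 21%, 21.8%, 17.7% and 19.4% of all probe sets. Npc2d, Npc2f, Npc2g and Npc2h were called higher in all 4 contrasts, which held for 8.89% of all probe sets. The median difference of these 7 members was 0.43, 0.68, 0.57 and 0.70 in the 4 contrasts, and that of all probe sets was 0.05, 0.02, 0.01 and −0.06. When the 4 contrasts were averaged in 1 test, the same 6 members passed, against 28.9% of all probe sets.

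Npc2d lies next to Npc2e on chromosome arm 3R. At 20 °C its values were 8.33, 8.56 and 8.60 in constant 15 °C flies and 9.52, 9.33 and 8.72 in constant 25 °C flies, and the ranges did not overlap. After ramping they were 7.58, 7.24 and 7.37 at constant 15 °C against 8.52, 8.86 and 8.97 at constant 25 °C. The differences were 0.69 ± 0.17 (adjusted P = 0.0030) and 1.39 ± 0.17 (adjusted P = 2.16e-06), or 1.61-fold and 2.62-fold. Fluctuating flies had 7.46, 7.97 and 7.71 around 15 °C against 8.66, 8.73 and 8.92 around 25 °C at 20 °C, a difference of 1.06 ± 0.17 (adjusted P = 9.92e-05). After ramping the values were 6.81 and 6.81 around 15 °C against 7.90, 8.20 and 8.37 around 25 °C, a difference of 1.35 ± 0.19 (adjusted P = 4.82e-05). The 25 °C arrays were the higher ones in each of the 4 contrasts.

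Npc2c, which follows Npc2d in the same row of genes, lay between 3.19 and 3.94 on all 23 arrays. The most frequent value over all probe sets was close to 3.35, and 24.9% of all values were under 4, so that Npc2c was at the low end of the scale in every group. It was called in none of the 12 contrasts, and its groups overlapped throughout. Its differences between mean temperatures were −0.17, 0.08, 0.08 and −0.19, and at this level the array does not show whether a difference is absent.

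Npc2g and Npc2h are neighbours elsewhere on 3R. Npc2g had values of 11.26, 11.06 and 11.10 in constant 15 °C flies at 20 °C and of 11.88 to 12.05 in constant 25 °C flies. All 12 arrays of 25 °C lay above all 11 of 15 °C, since the values ran from 11.79 to 12.18 at 25 °C and from 10.86 to 11.39 at 15 °C. Its differences were 0.84, 0.98, 1.01 and 1.10 (SE 0.11 to 0.12), and the highest of the 4 adjusted P was 4.12e-06. Npc2h, a secreted binder of bacterial cell wall components, had 10.71, 10.61 and 10.83 at constant 15 °C and 11.18, 11.06 and 11.20 at constant 25 °C, both at 20 °C. Its differences were 0.43, 0.68, 0.57 and 0.84, each with an SE of 0.11 to 0.12. The arrays of 15 and 25 °C did not overlap in any of its contrasts.

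Npc2f, which stands alone on 3R between Sec10 and Kal1, differed by nearly the same amount in each contrast. Its values at 20 °C were 8.40, 8.66 and 8.57 at constant 15 °C and 9.48, 9.41 and 9.33 at constant 25 °C. Under fluctuation they were 8.04, 8.24 and 8.06 around 15 °C and 8.69, 8.94 and 8.94 around 25 °C. The 4 differences were 0.86, 0.75, 0.74 and 0.70 (SE 0.12 to 0.13), without overlap between the mean temperatures in any contrast.

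Npc2a and Npc2b, the pair known for sterol homeostasis, changed least among the members that passed. Npc2a had 10.95, 10.82 and 10.81 at constant 15 °C and 11.25, 11.28 and 11.21 at constant 25 °C when assayed at 20 °C. Its differences were 0.39 ± 0.09, 0.29 ± 0.09 and 0.36 ± 0.09 in the first 3 contrasts. In ramped fluctuating flies the difference was 0.20 ± 0.10 (adjusted P = 0.15) and the arrays overlapped. Npc2b had 10.61, 10.64 and 10.74 against 10.96, 10.89 and 10.99 in constant flies at 20 °C. Its differences were 0.28, 0.20, 0.33 and 0.19 (SE 0.07 to 0.08), and the last did not pass (adjusted P = 0.065) although the arrays did not overlap. In ramped constant flies, leaving out replicate 3 of 15 °C raised the adjusted P to 0.076 for Npc2a and 0.12 for Npc2b. The suffix of the Npc2b probe set marks probes that may be shared with other transcripts.

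**Figure D2:**
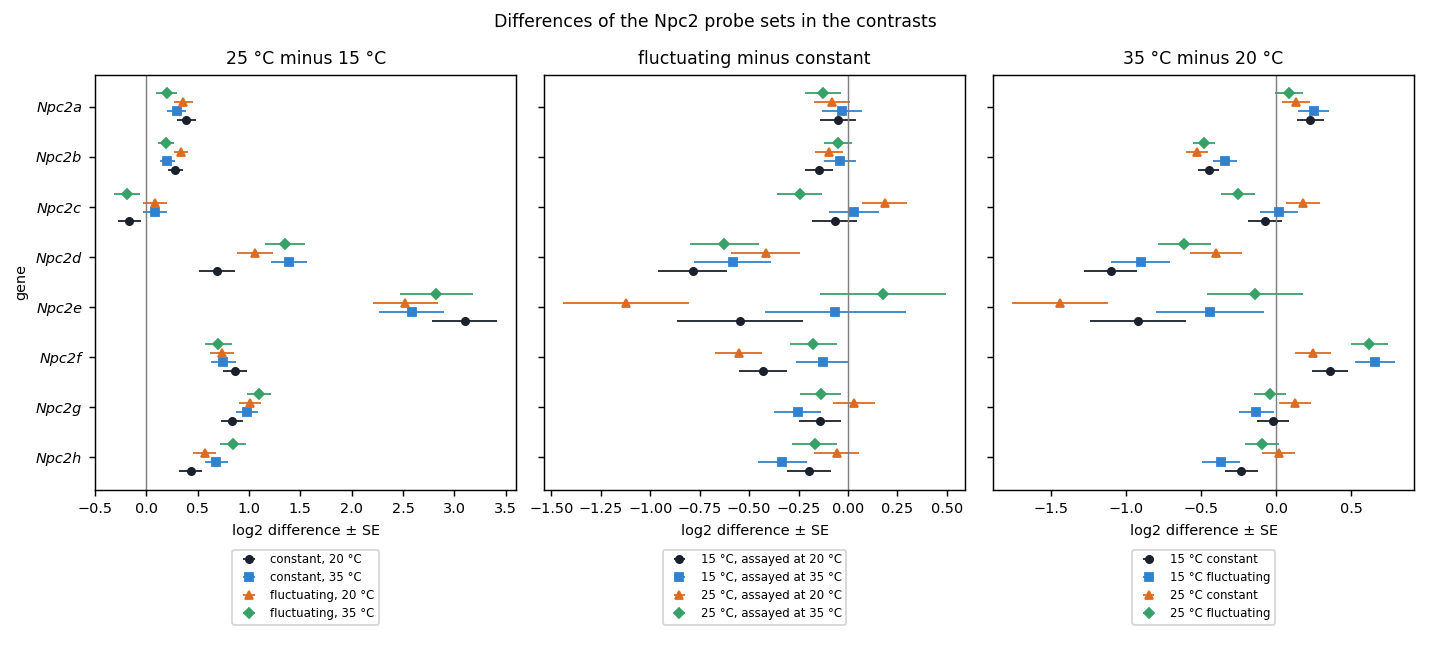
Log2 difference ± SE (horizontal axis) of each of the 8 Npc2 probe sets (vertical axis) in the 4 contrasts each of mean temperature, fluctuation and ramping; colours and shapes mark the contrasts. Npc2e stands at 2.52 to 3.10 between mean temperatures, and Npc2b lies below 0 and Npc2f above 0 in each of the 4 ramping contrasts.

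Ramping to 35 °C moved members in both directions. In each of the 4 contrasts 2 of 8 members were called lower, and the share of all probe sets called lower was 8.29% at constant 15 °C, 5.67% at fluctuating 15 °C, 10.1% at constant 25 °C and 8.87% at fluctuating 25 °C. Called higher were 0, 1, 0 and 1 of 8, where the shares over all probe sets were 6.2%, 7.79%, 8.4% and 7.74%. The median difference over the 8 members was −0.15, −0.24, 0.07 and −0.12.

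Npc2b was the member called lower in all 4 ramping contrasts, as were 3.45% of all probe sets. Constant 25 °C flies had 10.96, 10.89 and 10.99 at 20 °C and 10.45, 10.38 and 10.43 at 35 °C, and fluctuating 25 °C flies had 10.93, 10.78 and 10.84 against 10.37, 10.31 and 10.44. Constant 15 °C flies went from 10.61, 10.64 and 10.74 to 10.24, 10.28 and 10.13, and fluctuating 15 °C flies from 10.41, 10.62 and 10.51 to 10.20 and 10.15. No ramped array overlapped the arrays of its own regime at 20 °C. Npc2b fell by 0.45 (adjusted P = 0.00010), 0.34 (0.0049), 0.53 (1.04e-05) and 0.48 (3.31e-05) in constant 15, fluctuating 15, constant 25 and fluctuating 25 °C flies. The second of these missed the threshold without replicate 2 of 15 °C fluctuating, 35 °C (adjusted P = 0.059).

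Npc2d was called lower in 3 of the 4. It fell by 1.10 ± 0.17 at constant 15 °C (adjusted P = 0.00011), by 0.90 ± 0.20 at fluctuating 15 °C (adjusted P = 0.0028) and by 0.61 ± 0.17 at fluctuating 25 °C (adjusted P = 0.017), without overlap. At constant 25 °C the arrays overlapped, and the difference was −0.40 ± 0.17 (adjusted P = 0.13). The call at fluctuating 25 °C was lost without replicate 1 of its ramped group (adjusted P = 0.10).

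Npc2e was called lower with ramping at constant 25 °C, where it fell by 1.44 ± 0.32 (adjusted P = 0.0024), or 2.71-fold. All 3 ramped arrays (7.13, 7.19 and 8.27) lay below the 3 at 20 °C (8.78 to 9.19). Those 3 arrays at 20 °C were among the values that led to the choice of the family. A high value there favours a fall from it, and this P does not allow for that. In the other regimes the differences were −0.92 ± 0.32 at constant 15 °C (adjusted P = 0.059, arrays not overlapping), −0.44 ± 0.36 at fluctuating 15 °C and −0.14 ± 0.32 at fluctuating 25 °C. Ramped and unramped arrays overlapped in both fluctuating regimes. At constant 25 °C, 4 of 5 haemocyte genes (median −0.62) and 2 of 6 fat body genes (median −0.24, with 1 called higher) were also called lower with ramping. The share of all probe sets called lower there was 10.1%. In 15 °C constant, 15 °C fluctuating and 25 °C fluctuating flies 0, 2 and 0 haemocyte genes and 3, 3 and 3 fat body genes were called lower. There the shares of all probe sets were 8.29%, 5.67% and 8.87%. Genes of these lists called higher in those regimes are not counted here. The part of these shifts in the values of Npc2e was not tested. Other tissue lists are given below for the mean of the 4 ramping contrasts.

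Npc2f was the member called higher with ramping. It rose by 0.66 ± 0.13 at fluctuating 15 °C (adjusted P = 0.0016), from 8.04, 8.24 and 8.06 to 8.73 and 8.81. At fluctuating 25 °C it rose by 0.62 ± 0.12 (adjusted P = 0.00072), from 8.69, 8.94 and 8.94 to 9.24, 9.47 and 9.71. In constant flies the differences were 0.36 ± 0.12 at 15 °C (adjusted P = 0.052) and 0.24 ± 0.12 at 25 °C (adjusted P = 0.19), again with every ramped array above those at 20 °C. With the array that was left out, the difference of fluctuating 15 °C flies was −0.27 (adjusted P = 0.61).

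The remaining members gave no call with ramping in any single regime. Npc2a differed by 0.23, 0.25, 0.13 and 0.09, Npc2g by −0.02, −0.13, 0.12 and −0.04, and Npc2h by −0.23, −0.37, 0.02 and −0.10. In the mean of the 4 ramping contrasts, a test added after the values were seen, Npc2b (−0.45), Npc2d (−0.75), Npc2e (−0.73) and Npc2h (−0.17) were called lower, against 17% of all probe sets. Npc2a (0.17) and Npc2f (0.47) were called higher, against 16.2%. In that mean 4 of 5 haemocyte, 3 of 6 fat body and 4 of 13 midgut genes were called lower. So were 4 of 10 accessory gland, 1 of 7 muscle and 0 of 13 testis genes. Genes called higher are not counted here, so these numbers do not show that a list fell as a whole. The call of Npc2h was lost without any of 4 single arrays, with an adjusted P of up to 0.092 without replicate 2 of 15 °C fluctuating, 35 °C.

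With fluctuation 2 members were called lower, each in 1 contrast. Npc2d was called lower in 15 °C flies at 20 °C (1 of 8 members, against 0.655% of all probe sets), and Npc2f in 25 °C flies at 20 °C (1 of 8, against 0.879%). In ramped flies 0 of 8 members were called lower at 15 °C, where 0.464% of all probe sets were, and 0 of 8 at 25 °C (0.437%). No member was called higher in the 4 contrasts, where 1.5%, 1.76%, 0.0586% and 0.613% of all probe sets were.

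For Npc2d, the constant 15 °C flies at 20 °C had 8.33, 8.56 and 8.60 and the fluctuating ones 7.46, 7.97 and 7.71, which did not overlap. It fell by 0.78 ± 0.17 (adjusted P = 0.020), or 1.72-fold. The other 3 differences were −0.58 ± 0.19 (15 °C, 35 °C), −0.42 ± 0.17 (25 °C, 20 °C) and −0.63 ± 0.17 (25 °C, 35 °C), with adjusted P of 0.13, 0.33 and 0.065. For Npc2f, constant 25 °C flies at 20 °C had 9.48, 9.41 and 9.33 and fluctuating ones 8.69, 8.94 and 8.94. It fell by 0.55 ± 0.12 (adjusted P = 0.031), and at 15 °C, 20 °C, the difference was −0.43 ± 0.12 (adjusted P = 0.068). Both calls rested on few arrays, since that of Npc2d was lost in 4 and that of Npc2f in 5 of 23 fits that left out 1 array. The highest adjusted P were 0.12 without replicate 1 of 15 °C fluctuating, 20 °C (Npc2d) and 0.19 without replicate 1 of 25 °C fluctuating, 20 °C (Npc2f).

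In Npc2e the largest difference with fluctuation was in 25 °C flies at 20 °C, where the arrays did not overlap (7.47 to 8.33 against 8.78 to 9.19). It was −1.12 ± 0.32, or 2.18-fold, and did not pass (adjusted P = 0.11). The constant arrays of this contrast were also among the values that led to the choice of the family. At 35 °C the difference in 25 °C flies was 0.18 ± 0.32 with overlapping arrays. In the mean of the 4 fluctuation contrasts, the 8 members had values from −0.60 to −0.02. Npc2d (−0.60, adjusted P = 0.00028), Npc2f (−0.32, adjusted P = 0.0022) and Npc2h (−0.19, adjusted P = 0.032) were called lower, against 6.41% of all probe sets. Npc2e (−0.39, adjusted P = 0.12) was not, and the call of Npc2h was lost in 12 of 23 fits that left out 1 array (adjusted P up to 0.095). In the same mean, 6 of 13 midgut enzyme genes (median −0.24) and 7 of 10 accessory gland genes (median −0.15) were called lower. So were 1 of 6 fat body, 1 of 7 muscle, 1 of 5 haemocyte and 0 of 13 testis genes. List genes called higher in that mean are not counted here. The part of these shifts in the values of the Npc2 genes was not tested.

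Whether the effects differed between groups was tested with 6 interactions. By limma, 0 of 44 tests on the members passed, and 4 had an unadjusted P under 0.05. Of all 18769 probe sets, 2605, 2537, 1715, 1366, 1174 and 711 had such a P in the 6 interactions, in the order below. With mean temperature by fluctuation 0 of 7 members were called at 20 °C (0.0746% of all probe sets) and 0 of 7 at 35 °C (0.032%). With mean temperature by ramping it was 0 of 7 in constant flies (0.65%) and 0 of 7 in fluctuating flies (0.0693%). With fluctuation by ramping it was 0 of 8 at each mean temperature, where the share of all probe sets was also 0%. The 4 with an unadjusted P under 0.05 were mean temperature by ramping in constant flies for Npc2d (0.70 ± 0.25) and fluctuation by ramping at 25 °C for Npc2e (1.30 ± 0.45), Npc2f (0.38 ± 0.17) and Npc2c (−0.43 ± 0.16). With weights for array quality, the first of these passed (0.93, adjusted P = 0.021). The interaction of Npc2e uses the arrays of constant 25 °C at 20 °C, which were among the values that led to its choice.

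In ramped 25 °C flies, replicate 3 had the highest value of its group in both regimes for 6 of the 8 members. These were Npc2a, Npc2d, Npc2e, Npc2f, Npc2g and Npc2h. How many of all probe sets had the same pattern was not counted, so it cannot be called a trait of the family. In Npc2e the 2 arrays of replicate 3 read 8.27 and 8.58 where the others of their groups read 7.13 to 7.30. The same 2 arrays had the highest summed level of midgut enzyme genes in their groups (16.2 against 16.0 and 16.0 in constant flies, 16.0 against 15.8 and 15.9 in fluctuating flies). They also had the highest summed level of the microbe-sensing list (13.4 against 13.2 and 13.2, and 13.3 against 13.0 and 13.1), the highest of haemocyte genes (9.07 against 8.91 and 8.94, and 9.42 against 9.17 and 9.04), and the lowest of testis genes (14.70 against 14.88 and 14.81, and 14.71 against 15.02 and 14.87). The other lists did not set these 2 arrays at the same end in both regimes. In the sterol and ecdysteroid lists replicate 3 was the lowest in constant flies and the highest in fluctuating flies. For fat body, accessory gland, muscle and egg shell and yolk genes it was in the middle in either constant or fluctuating flies. The part of the list levels in the values of Npc2e was not tested.

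Over the 23 arrays, the genes whose pattern was most like that of Npc2e by Pearson's r were clt (0.974), Alp5, an alkaline phosphatase (0.960), CG9396 (0.956), hiro (0.956) and CG16799 (0.953). These arrays share the 2 mean temperatures, which separate the values of all of them, and the r are a description. Between mean temperatures these 5 genes differed by 0.54 to 1.29, against 2.52 to 3.10 for Npc2e. The genes most like Npc2d were Cyp6a13, Cyp6t1, CG13085, CG15784 and Cyp6a18 (0.942 to 0.951), of which the Cyp genes are cytochrome P450 enzymes. Those most like Npc2f were CG10650, CG44008, mdu, CG3987 and CG10116 (0.967 to 0.974). Npc2g was most like CG7322, CG14629, Galt, fbp and Gbp3 (0.986 to 0.988), where Galt and fbp encode enzymes of galactose and fructose bisphosphate metabolism. Npc2h was most like Aldh7A1, Rab10, Glo1, GstE9 and CG9119 (0.960 to 0.970), which include an aldehyde dehydrogenase, a glyoxalase and a glutathione S-transferase.

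**Figure D3:**
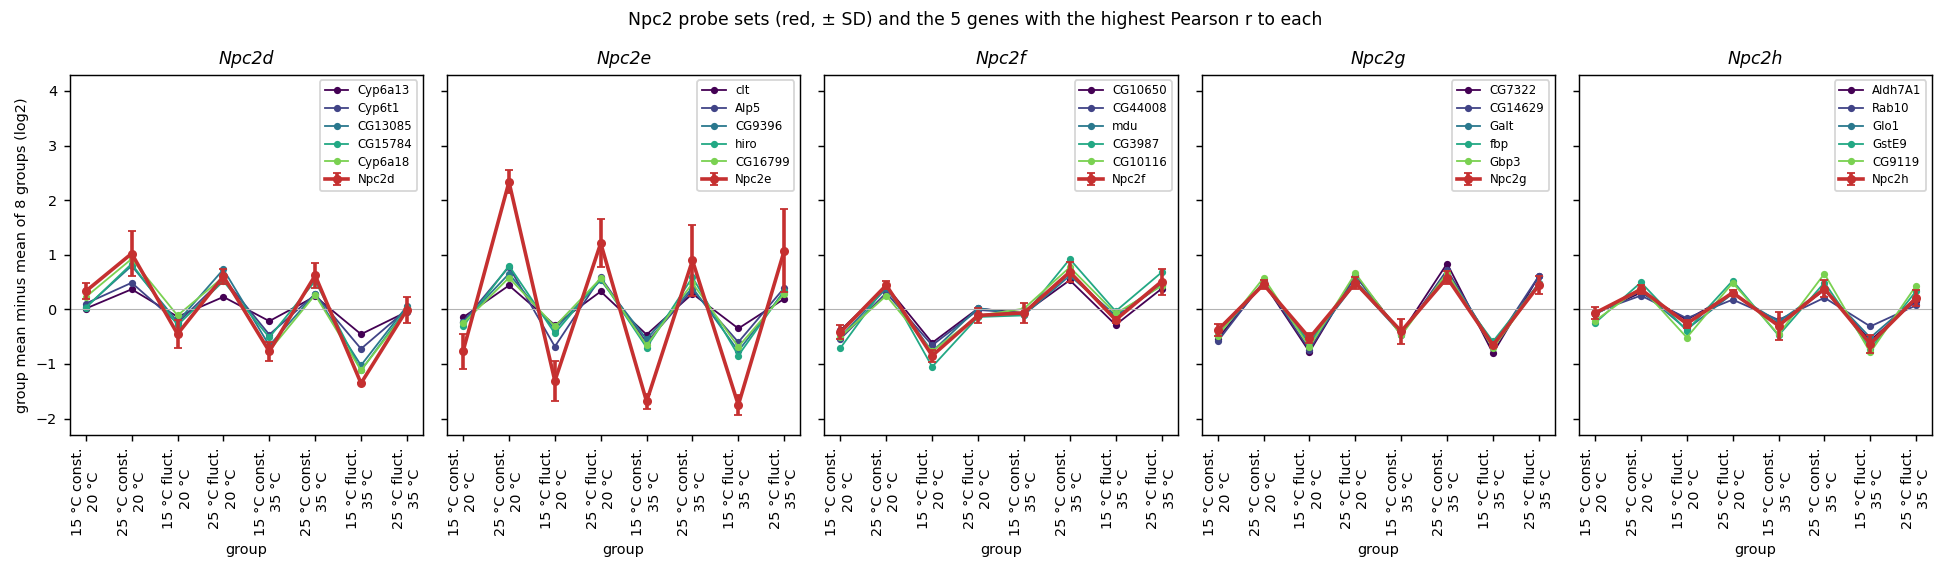
Group means minus the mean over the 8 groups (log2, vertical axis) in the 8 groups (horizontal axis), in red with SD for the 5 Npc2 probe sets whose group means span over 1 log2 unit, and in other colours for the 5 genes with the highest Pearson r to each over 23 arrays. The 5 genes most like Npc2e keep its direction with differences of 0.54 to 1.29 between mean temperatures, and CG7322, the gene most like Npc2g, differs by 1.02 to 1.41 where Npc2g differs by 0.84 to 1.10.

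Among the members, Npc2g and Npc2h had the highest r over the 23 arrays (0.939). Their deviations from the group means, which leave out the differences between groups, correlated at 0.854. Npc2e had an r of 0.905 with Npc2g, of 0.885 with Npc2h and of 0.831 with its neighbour Npc2d, and the deviations of Npc2e and Npc2d correlated at 0.299. Npc2b and Npc2f had an r of 0.023, and Npc2b lay below 0 and Npc2f above 0 in each ramping contrast.

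By the order of genes in the RefSeq annotation of assembly Release 6 plus ISO1 MT, 7 members lie on 3R and Npc2a on 2L. Npc2e, Npc2d and Npc2c follow each other, with Fancl before Npc2e and CG33630 after Npc2c, and Npc2g and Npc2h stand between CG15543 and zfh1. An antisense RNA gene overlaps Npc2e and another overlaps Npc2c. Of these 4 flanking genes, singled out by position after the values were seen, 3 had a probe set of their own in the annotation, and CG33630 was not analysed here. Fancl and CG15543 were called lower at 25 °C in all 4 contrasts. In single contrasts 17.7% to 21.8% of all probe sets were called lower, and the share called lower in all 4 was not computed. Fancl fell by 0.30, 0.64, 0.35 and 0.57, and CG15543 fell by 0.67, 0.90, 0.63 and 0.58. The gene zfh1 differed by −0.01, −0.13 and −0.04 without a call, and fell by 0.31 in ramped fluctuating flies (adjusted P = 0.027).

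Of the list of other sterol and lipid transport genes, 15 of 16 had an assigned probe set. Between mean temperatures 12, 10, 10 and 7 of the 15 were called higher and none lower, in the order of contrasts used above. Over all probe sets 22%, 21.9%, 17.6% and 13.7% were called higher and 21%, 21.8%, 17.7% and 19.4% lower. The median difference of the list was 0.34, 0.27, 0.34 and 0.20. Apoltp, which builds the lipid transfer particle of the haemolymph, rose by 1.07, 1.32, 1.20 and 0.89. Mtp, which loads lipid onto lipoproteins, rose by 0.88, 1.09, 1.23 and 0.98, and LpR2, a lipophorin receptor, by 1.02, 1.21, 0.55 and 0.71. With fluctuation 0 of 15 were called in any of the 4 contrasts, where 2.16%, 2.22%, 0.938% and 1.05% of all probe sets were. With ramping 6, 4, 4 and 7 were called lower (8.29%, 5.67%, 10.1% and 8.87% of all probe sets) and 1, 3, 2 and 2 higher (6.2%, 7.79%, 8.4% and 7.74%). Npc1a, the NPC1 protein that takes sterol from NPC2 proteins, was singled out for that role. It differed by −0.15 to 0.10 between mean temperatures, with no call, and fell by 0.40, 0.48, 0.56 and 0.43 with ramping (adjusted P of at most 0.00023).

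Of the ecdysteroid list 14 of 17 genes had a probe set, and 5, 4, 2 and 1 were called higher and 2, 2, 1 and 1 lower at 25 °C. Over all probe sets 13.7% to 22% were called higher and 17.7% to 21.8% lower in these contrasts. Cyp18a1, which inactivates ecdysteroids, rose by 0.78, 0.89, 1.06 and 0.40. The receptor genes EcR and usp were called higher in 2 and 3 of the 4. The gene shd, whose enzyme makes the active hormone from ecdysone, fell by 0.57, 0.58, 0.49 and 0.57, and dib, of the synthesis pathway, was called lower in both constant contrasts. The list had a median of 0.08, 0.18, 0.11 and −0.06. With fluctuation 3 of its genes were called higher in ramped 15 °C flies, where 1.76% of all probe sets were, and 0 in the other contrasts. With ramping 0, 2, 1 and 0 were called higher and 1, 0, 1 and 1 lower. Over all probe sets 6.2%, 7.79%, 8.4% and 7.74% were called higher with ramping and 8.29%, 5.67%, 10.1% and 8.87% lower.

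Of the microbe-sensing list 24 of 31 genes had a probe set, of which 14, 13, 14 and 11 were called higher and 0, 2, 1 and 0 lower at 25 °C, with a median difference of 0.30, 0.36, 0.38 and 0.28. The shares of all probe sets called higher were 22%, 21.9%, 17.6% and 13.7%, and those called lower 21%, 21.8%, 17.7% and 19.4%. PGRP-SB1 and PGRP-SC2, secreted peptidoglycan recognition proteins, rose by 1.29, 1.73, 2.20 and 2.04 and by 1.21, 1.61, 1.46 and 1.38. The gene pirk, a negative regulator of the IMD pathway, rose by 1.62, 0.83 and 1.27 in the first 3 contrasts and differed by 0.35 in the last (adjusted P = 0.25). Dredd, a caspase of that pathway, fell by 0.29 in ramped constant flies and by 0.21 in fluctuating flies at 20 °C. With fluctuation 0 of 24 were called, where 2.16%, 2.22%, 0.938% and 1.05% of all probe sets were called in either direction. With ramping 6, 3, 10 and 9 were called lower (8.29%, 5.67%, 10.1% and 8.87% of all probe sets) and 2, 2, 3 and 3 higher (6.2%, 7.79%, 8.4% and 7.74%).

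**Figure D4:**
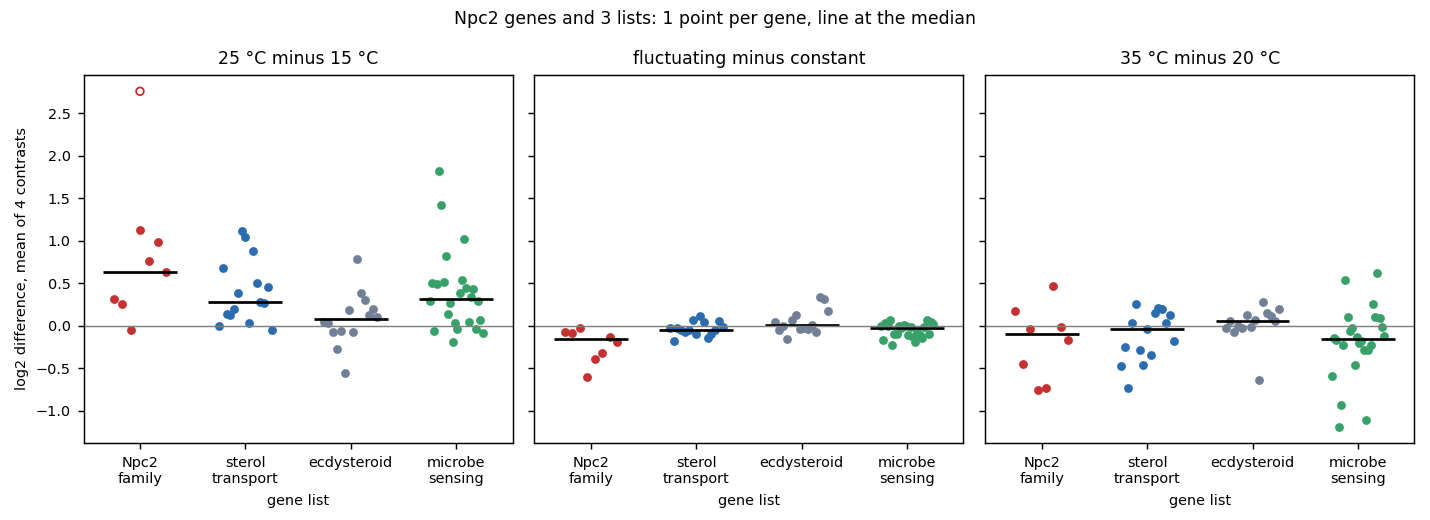
Log2 difference averaged over the 4 contrasts (vertical axis) of the Npc2 genes and of the genes of 3 lists (horizontal axis), for mean temperature, fluctuation and ramping; 1 point is 1 gene and black lines are medians. The open point is Npc2e between mean temperatures, which is left out of that median; of the other 7 Npc2 points there, 6 lie above 0.

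Markers of tissues moved with mean temperature as well, in contrasts where 22%, 21.9%, 17.6% and 13.7% of all probe sets were called higher and 21%, 21.8%, 17.7% and 19.4% lower. Of 13 midgut enzyme genes, 10, 10, 11 and 8 were called higher at 25 °C and 0, 1, 0 and 0 lower, and their summed level was 15.3 to 15.7 at 15 °C and 15.8 to 16.2 at 25 °C. Of 6 fat body genes 5, 5, 4 and 4 were called higher (1 was called lower in each of the constant contrasts), with a summed level of 13.3 to 14.0 at 15 °C and 13.9 to 14.7 at 25 °C. Of 7 muscle genes 6, 7, 7 and 6 were called lower and none higher (summed level 14.9 to 15.1 at 15 °C and 14.2 to 14.4 at 25 °C). Of 13 testis genes 9, 9, 11 and 7 were called lower and 1 higher in each contrast (15.1 to 15.3 and 14.7 to 15.0). Of 10 accessory gland genes 6, 6, 8 and 7 were called lower and 1, 1, 0 and 1 higher (16.0 to 16.4 and 15.6 to 16.0). Of 5 haemocyte genes 0, 3, 0 and 0 were called lower and 0, 0, 0 and 1 higher (8.86 to 9.66 and 8.91 to 9.92). The part of these shifts in the values of the Npc2 genes was not tested.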

How the data were processed

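Whole male *D. melanogaster* were measured on 24 Affymetrix Drosophila Genome 2.0 arrays. The authors deposited log2 values, made from the scanned arrays by GC-RMA (package gcrma, version 2.40.0), with 1 value per probe set and array. GC-RMA corrects background from probe sequence and normalizes all arrays together, so values of dim probe sets are compressed near the low end. Arrays have no read depth, and their number limits the precision.

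Of 18952 probe sets, 183 controls were left out. Of the 18769 tested, 13647 have 1 gene symbol in the platform annotation, 402 several and 4720 none. Groups came from the sample labels, and all sample columns were used except the array that failed. A linear model with 1 mean per group, without covariates, was fitted to 23 arrays with limma (version 3.58.1, R 4.3.3), as in the methods of the study. From this fit came 12 contrasts (4 each of mean temperature, fluctuation and ramping) and 6 interactions, each with Benjamini-Hochberg adjustment over all 18769 probe sets and a threshold of 0.05. The averages over 4 contrasts were added after the values were seen. The fit was tested on simulated data. Other steps used Python 3.11.15, numpy 2.4.6 and pandas 2.3.3, and figures matplotlib 3.10.9.

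A list gene is represented by its probe set of highest mean level. A summed level is log2 of the sum of the unlogged values of a list's genes. Named were all Npc2 probe sets, up to 3 genes of each of the 3 pathway lists that rose and 3 that fell most between mean temperatures (called in at least 2 contrasts with 1 sign in all 4), and the 5 genes of highest Pearson r with each Npc2 probe set whose group means span over 1 log2 unit. The members and lists were chosen with earlier results of these data known. The alternatives were all 24 arrays, 22 arrays, only the arrays compared, a replicate block, a variance trend, array weights, a filter on dim probe sets (highest group mean under 4), median centring, quantile normalization and leaving out each array.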

Additional observations from a re-analysis of the deposited data

How the results depend on the processing

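The count of members called between mean temperatures was 6 of 7 on 23 arrays and under all other settings except all 24 arrays, where it was 4. Leaving out each array gave 6 to 6. With fluctuation the count was 2 of 8, and it was 0 on all 24 arrays, 5 with array weights, 1 after median centring and 1 to 3 when 1 array was left out. With ramping it was 4 of 8, and it was 1 on all 24 arrays, 5 with a variance trend, a filter on dim probe sets or quantile normalization, 6 with array weights or median centring, and 4 to 5 when 1 array was left out. For the interactions it was 0, and 1 with array weights. On all 24 arrays fewer of all probe sets were called as well in the contrasts of the added array. The shares were 7.77% against 33.1% on 23 arrays (mean temperature), 0% against 2.22% (fluctuation) and 2.54% against 13.5% (ramping). Shares under the other settings are not given here, so those counts do not set the members apart from other probe sets. On all 24 arrays 36 of 54 differences lost their call, and 2 turned, namely that of Npc2f with ramping at fluctuating 15 °C (−0.27) and that of Npc2a in the mean of the ramping contrasts (−0.0031). The added array alone makes this change, as the settings differ in nothing else. The difference of Npc2e between mean temperatures in ramped fluctuating flies was 2.37 on all 24 arrays and 2.39 without replicate 3 of 25 °C fluctuating, 35 °C.

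Same-numbered arrays of different groups showed no general pairing. Their deviations correlated at −0.37 to 0.49 over 77 pairs (median 0.0012, 10 of them over 0.1). Arrays of other numbers gave −0.49 to 0.33 over 154 pairs (median 0.0032, 28 of them over 0.1). The highest value among same-numbered arrays lay above that of all other pairs, so single pairs may have deviated together. With a replicate block the counts were 6, 2, 4 and 0. Of 54 differences, fitting only the arrays compared lost 1 call (Npc2b with ramping at fluctuating 15 °C), median centring 2 and quantile normalization 1; the cause was not tested. Over the 23 fits without 1 array, 32 of 1242 differences lost their call. The group of 2 arrays takes its spread from the other groups.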
